A study of Mus musculus with 12 samples.

Results

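This account follows the early response to antigen-receptor crosslinking in follicular B cells labelled ZFXcko, taken from 4 of the 12 arrays of the study, namely the 2 arrays of cells cultured for 2 h with anti-IgM against the 2 arrays at 0 h. All probe sets entered the comparison, on the scale of log2(signal + 16). The cells came from 8-week-old male mice of the strain 129SvEv. Their labels give the genotype as ZFXcko, an abbreviation the labels do not spell out, and ZFXwt marks the comparison genotype. In both genotypes splenic follicular B cells were sorted as B220+ AA4.1- CD23hi CD21int and placed in culture with anti-IgM at 10 µg/mL, with arrays at 0 h, 2 h and 12 h and 2 arrays per genotype and time. Zfx encodes a zinc-finger transcription factor. The promoter or Cre line behind a deletion, its position in the gene, the number of mice and whether the duplicate arrays came from different mice are unknown from the labels. The p-values below therefore measure only the spread between arrays, which may be technical.

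Anti-IgM binds the surface immunoglobulin of a B cell and crosslinks the receptor, which passes the signal through Src-family kinases and Syk to calcium release, the MAP kinases and NF-kB. Resting follicular B cells respond within minutes to hours by transcribing immediate early genes, most of which encode transcription factors, and then genes for cell growth. Genes that hold lymphocytes at rest or guide their recirculation are switched down in the same period. The series has no array of cells cultured for 2 h without anti-IgM, so the effects of the antibody and of 2 h in culture cannot be told apart.

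The targeted gene was read first. The brightest of 3 Zfx probe sets that passed the filter had signals of 2189 and 2618 at 0 h and 974 and 1035 at 2 h, and both arrays at 2 h lay below both at 0 h (log2 difference -1.24 ± 0.09, adjusted p = 2.04e-08). The other Zfx probe sets were not called, with log2 differences of 0.50 and -0.41. In wild-type cells the brightest probe set read 983 and 1041 at 0 h and 809.6 and 789.6 at 2 h, so at 0 h it was higher on the arrays labelled cko. Without the position of the deleted part these readings check nothing about the genotype. The call on Zfx was lost with the mean of its probe sets and in the additive fit described under the heat shock genes.

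Between 0 h and 2 h the arrays themselves differed. The median signal over all probe sets was 40.2 and 40.3 at 0 h and 29.9 and 30.5 at 2 h, at a fixed trimmed mean. The 5′ probe set of actin read 1.99% and 1.80% of the 3′ probe set at 0 h but 10.6% and 10.8% at 2 h. The 3′ probe set for 18S ribosomal RNA read 7124 and 7553 at 0 h and 1022 and 1085 at 2 h, and the cre hybridization control read 33584 and 32515 at 0 h and 21629 and 22665 at 2 h. All of these differed between 0 h and 2 h, and their part in the results below cannot be told apart from that of the culture, except where a value is given. Wild-type arrays moved the same way, from 3.27% and 3.33% to 8.51% and 8.41% for actin. On the cko arrays at 12 h, which are quoted below for single genes, the percentage was 19.1% and 19.0%. On the wild-type arrays at 12 h it was 2.11% and 2.27%. The 3′ probe set for 18S read 1100 and 1033 at 12 h in cko and 10892.5 and 10672.5 in wild type. These controls therefore did not simply follow time. They divide the arrays into cko 0 h, wt 0 h and wt 12 h against the other groups, a division that falls between the 2 groups compared here. The B cell receptor subunit gene Cd79b read 22848 and 22438 at 0 h and 6620.4 and 6636 at 2 h. The T cell gene Cd3d read 215 and 209.8 at 0 h, while Cd4, another T cell gene, read 16.9 and 14.7. A single marker does not show that other cells were present.

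Of 12190 genes tested, 7684 (63%) were called between 2 h and 0 h at an adjusted p under 0.05 (limma), 2907 higher (23.8%) and 4777 lower (39.2%). The median log2 difference over all genes was -0.32, with quartiles at -0.93 and 0.39. Median scaling of the signals moved that value to 0.02 and raised the higher genes from 37.8% to 55.2% of all calls, while median scaling of the log2 values gave -0.03 and 51.1% and quantile normalization -0.17 and 41.7%. The direction of the whole distribution is therefore not settled. The lists below are to be read beside the all-gene median of -0.32 and the all-gene shares of 23.8% higher and 39.2% lower. Median scaling below means that of the signals. Of the called genes, 1515 were at least 2-fold higher (12.4% of all tested) and 2759 at least 2-fold lower (22.6%). In all, 30 genes changed at least 16-fold, 15 in each direction. The signals of the 2 h and 0 h arrays did not overlap for 9881 genes (81.1%), so a lack of overlap, given below for single genes, was the common case.

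Many genes are read by more than 1 probe set, and these did not always move together. Each gene is represented here by its brightest probe set. Of 4131 called genes with several probe sets, 1334 (32.3%) had all of them called in the same direction, and 965 (23.4%) had at least 1 called in the opposite direction. Among the 1334, 645 were higher and 689 lower, a more even split than over all called genes. Of the genes whose values are given below, Atic, Bid, Ets1, Foxo1, Itpr2, Mcl1, Ndufs4, Nop10 and Taf1d had a probe set called in the opposite direction, and Alyref, Bad, Bcl2l11, Casp9, Cblb, Ccdc173, Ccnd2, Crem, Csf1r, Eif3m, Eif4e, Fgd3, Gnai3, Grk6, Ikzf3, Itga4, Kbtbd11, Klf13, Mxd4, Nr4a2, Plec, Rsad2, Ssh1, Stat2, Stim1, Syt11, Tnfrsf1b, Tnfrsf9, Tob2, Xaf1 and Zfx had a probe set that was not called.

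**Figure D1:**
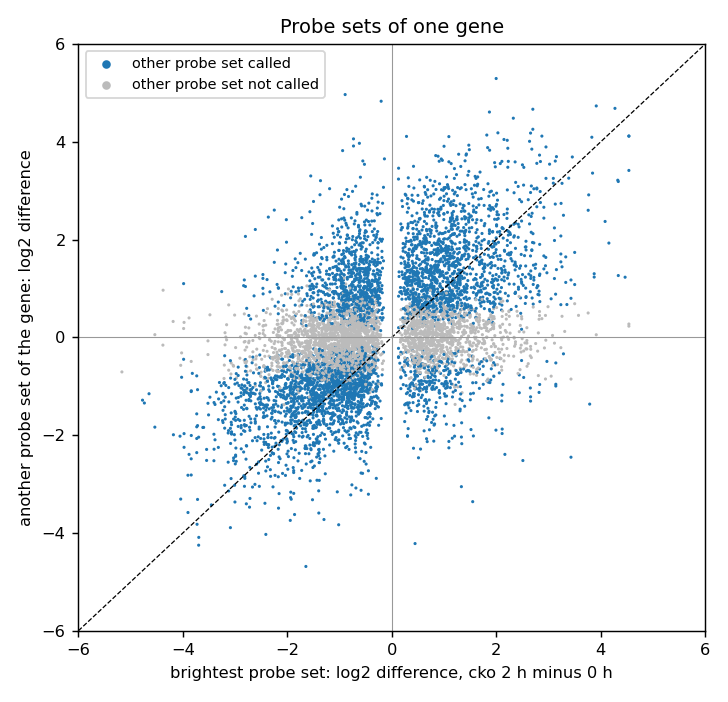
Log2 difference of cko 2 h minus 0 h for the brightest probe set of each called gene (x axis) and for each other probe set of the same gene (y axis); the dashed line marks equal values. Points in the upper left and lower right are probe sets that moved against the brightest one, as for 965 of 4131 genes in which such a probe set was called.

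The largest rise was that of Nr4a3, which encodes an orphan nuclear receptor induced by antigen-receptor signals. Its signal was 36.4 and 32.5 at 0 h and 10566 and 11001 at 2 h, a log2 difference of 7.74 ± 0.10 (adjusted p = 4.34e-15). The next largest rise was 5.34, and the cko arrays read 819 and 853 at 12 h. Nr4a2, a second gene of this receptor family, read 161 and 234 at 0 h and 4936 and 4825 at 2 h (4.54 ± 0.19). Of 6 Nr4a2 probe sets 4 were called higher, with values from 0.23 to 4.54. The nuclear receptor gene Nr1d2, whose product represses clock genes, read 127 and 106 at 0 h and 2914 and 2863 at 2 h (4.46 ± 0.13). Later signals were lower, with 373 and 273 at 12 h for Nr4a2 and 411 and 327 at 12 h for Nr1d2.

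Several other leading rises encode proteins at the cell surface or secreted from it. Ccl4, a secreted chemokine, read 193 and 162 at 0 h and 6768 and 6727 at 2 h (5.13 ± 0.10, adjusted p = 7.16e-14). Il2ra, the alpha chain of the interleukin 2 receptor, read 5.91 and 27.2 at 0 h and 551 and 515 at 2 h (4.16 ± 0.23). Its 0 h arrays were near the floor and far apart in ratio, so the size of this fold is loose. Lack of overlap was a condition for naming the largest changes. Slc16a1, the monocarboxylate transporter that exports lactate, read 92.8 and 82.3 at 0 h and 2647 and 2347 at 2 h (4.60 ± 0.13). Tnfrsf12a, a receptor of the TNF receptor family, rose by 4.27 ± 0.27, and both of its probe sets were called higher. Litaf, an endosomal membrane protein gene, rose by 4.33 ± 0.10 and Cystm1 by 4.47 ± 0.33.

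The remaining leading rises act in the nucleus, in RNA handling or in mitochondria. Nop58, a core protein of the particles that methylate ribosomal RNA, read 120.1 and 83.0 at 0 h and 4546 and 4811 at 2 h (5.34 ± 0.13). Pus7, a pseudouridine synthase, read 95.7 and 62.1 at 0 h and 2545 and 2449 at 2 h (4.75 ± 0.16). Mir155hg, the host transcript of microRNA-155, read 5.86 and 14.2 at 0 h and 535 and 496 at 2 h (4.37 ± 0.27). These 3 too were named under the condition that the groups did not overlap, which 81.1% of all genes met. Tgif1, a homeobox corepressor gene, rose by 4.42 ± 0.20, Thoc2, a subunit of the THO complex in mRNA export, by 4.34 ± 0.07, and Uqcrh, a subunit of respiratory complex III, by 4.08 ± 0.12. Uqcrh signals were 4367 and 4556 at 12 h, close to those at 2 h, which were 4379 and 4663.

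**Figure D2:**
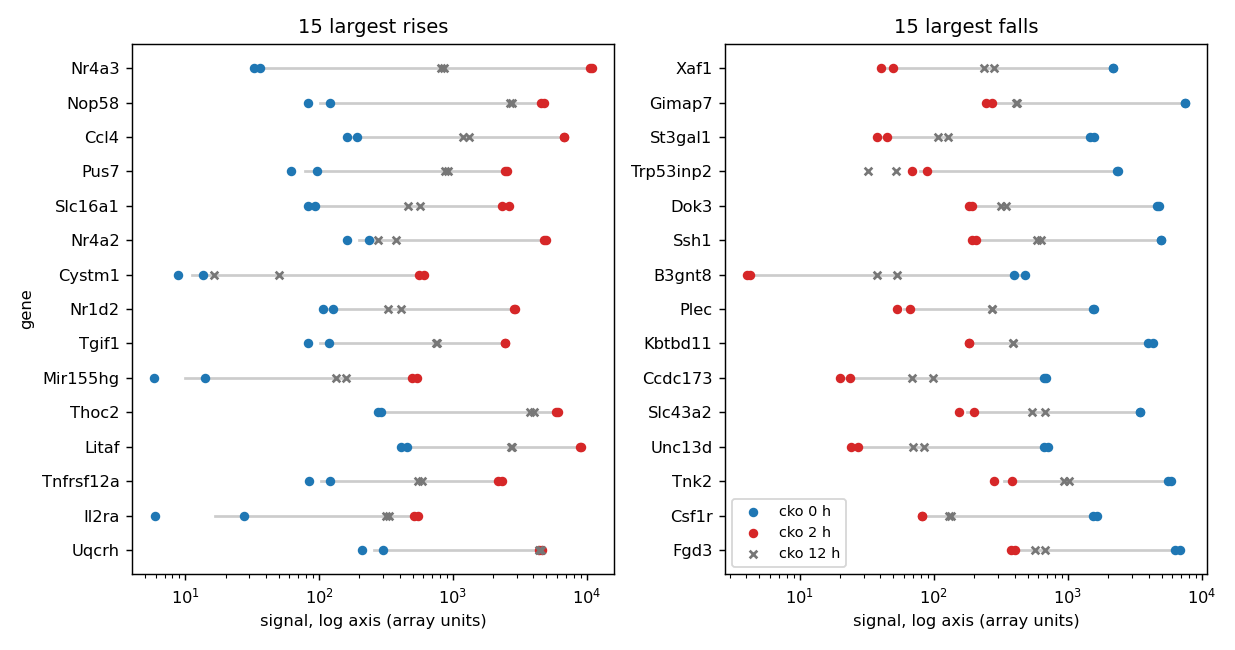
Signal on each cko array (log axis) of the 15 genes with the largest rises and the 15 with the largest falls at 2 h; blue points are the 2 arrays at 0 h, red points the 2 at 2 h and grey crosses the 2 at 12 h. The genes were chosen among called genes whose blue and red points do not overlap, so that lack of overlap is not a result. For Nr4a3 the points lie at 32.5 to 36.4 and 10566 to 11001.

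A stricter rule asked which genes went from a signal under 100 on both arrays to over 1000 on both. It took 5 genes, Nr4a3, Pus7, Slc16a1, Shmt1 and Alyref. Shmt1, the cytosolic serine hydroxymethyltransferase, read 97.2 and 76.3 at 0 h and 1599.6 and 1376 at 2 h, and Alyref, an adaptor for mRNA export, read 58.5 and 65.7 at 0 h and 1029 and 1051 at 2 h. The reverse rule took 9 genes, among them the kinase-linked receptor gene Csf1r and the integrin gene Itgb5. Under the same 2 limits in wild-type cells 0 of the 5 and 4 of the 9 passed. The limits are fixed, so a gene that fails them in wild type can still have changed there. The cko response exceeded that of wild type by 1.64 for Nr4a3, 1.42 for Pus7 and 0.56 for Slc16a1. Their cko responses were 7.74, 4.75 and 4.60.

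Immediate early transcription factors were mostly higher. Of 31 genes, 20 rose, 7 fell and 4 were not called, with a median of 1.59 against -0.32 for all genes, and the additive fit gave 16 higher, 5 lower and a median of 0.87. Egr1, a zinc-finger factor of the MAP kinase pathway, read 1950.4 and 1849 at 0 h and 15383 and 16586 at 2 h (3.06 ± 0.06), and the related Egr2 read 634 and 771 at 0 h and 10209 and 10095 at 2 h (3.83 ± 0.12). Crem, a factor at cyclic AMP response elements, read 279 and 395 at 0 h and 5212 and 5248 at 2 h (3.91 ± 0.12). On each of these the 2 h arrays were several times the 0 h arrays. The small Maf factor gene Maff rose by 3.73 ± 0.14 and the AP-1 subunit gene Fosl1 by 3.58 ± 0.27.

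Other AP-1 genes went the other way at this time. Jun read 5079 and 4838 at 0 h and 586 and 561 at 2 h (-3.08 ± 0.10) and Jund read 11090.4 and 13346 at 0 h and 1869 and 2066 at 2 h (-2.62 ± 0.10). Fosb read 1326 and 1367 at 0 h and 492 and 475 at 2 h (-1.45 ± 0.11). For all 3 both arrays at 2 h lay below both at 0 h, while the arrays of 81.1% of all genes were apart in either direction. Fosb, which encodes a partner of Jun in AP-1, went on to 32.9 and 33.0 at 12 h.

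**Figure D3:**
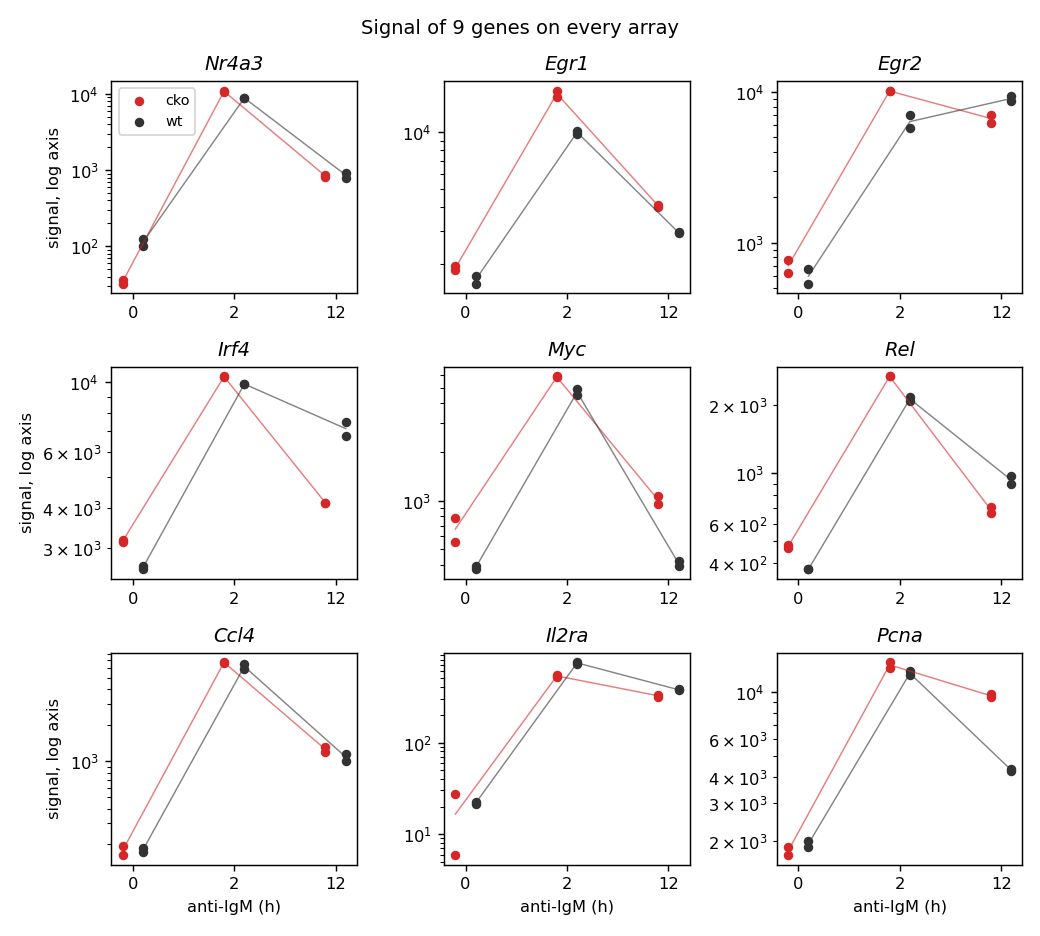
Signal on each array (log axis) at 0 h, 2 h and 12 h of anti-IgM for 9 genes, with cko arrays in red, wild-type arrays in black and lines through the means of 2 arrays. All 9 were higher on both cko arrays at 2 h than at 0 h, and the cko signal of Nr4a3 read 819 and 853 at 12 h. The times are spaced evenly on the x axis, not to scale.

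Among the MAP kinase phosphatases and Sprouty genes, which encode inhibitors of the same pathway, 6 of 16 rose, 4 fell and 6 were not called. Dusp4 read 320.1 and 299 at 0 h and 2274 and 2290.1 at 2 h (2.82 ± 0.12) and Dusp5 rose by 1.79 ± 0.21. Both encode nuclear phosphatases. Dusp6, whose product acts on ERK in the cytoplasm, fell by 1.29 ± 0.16 from means of 794 to 317.

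In the NF-kB list 9 of 17 rose, 7 fell and 1 was not called, with a median of 0.82. With the mean of the probe sets 7 were higher and 7 lower and the median was 0.15. The rises held a subunit as well as inhibitors and adaptors. Rel, the subunit c-Rel that mature B cells need to grow, read 468 and 484 at 0 h and 2686 and 2685 at 2 h (2.46 ± 0.08, adjusted p = 3.62e-12). The adaptor gene Traf1 read 832 and 1009.8 at 0 h and 4712 and 4735 at 2 h (2.35 ± 0.09), Relb rose by 2.0 ± 0.10 and the nuclear inhibitor gene Nfkbid by 1.89 ± 0.07. The falls included Nfkb2, which encodes the precursor p100 (-1.31 ± 0.11), and the coactivator gene Bcl3 (-1.37 ± 0.09). Tnip1, which encodes a partner of the deubiquitinase A20, read 2909 and 2866 at 0 h and 883 and 935 at 2 h (-1.65 ± 0.06). Rel and Tnip1 therefore moved in opposite directions, each with no overlap of arrays, which held for 81.1% of all genes.

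The windows upstream of Rel, Tnip1 and the surface gene Il2ra are shown because all 3 hold a match to the NF-kB consensus while their signals went in both directions. Each is the 250 bases before the start site given by RefSeq for build GRCm38.p6, on the strand of the gene, at chr11:23770970-23771219 (minus strand) for Rel, chr2:11642542-11642791 (plus strand) for Il2ra and chr11:54962941-54963190 (minus strand) for Tnip1. Capitals mark the matches, found on both strands, and overlapping matches run together.
Rel: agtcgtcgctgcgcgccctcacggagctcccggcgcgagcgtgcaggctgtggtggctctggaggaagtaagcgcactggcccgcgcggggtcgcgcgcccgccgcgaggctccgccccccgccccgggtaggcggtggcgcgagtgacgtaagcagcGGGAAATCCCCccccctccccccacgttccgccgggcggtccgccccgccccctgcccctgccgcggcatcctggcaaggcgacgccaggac
Il2ra: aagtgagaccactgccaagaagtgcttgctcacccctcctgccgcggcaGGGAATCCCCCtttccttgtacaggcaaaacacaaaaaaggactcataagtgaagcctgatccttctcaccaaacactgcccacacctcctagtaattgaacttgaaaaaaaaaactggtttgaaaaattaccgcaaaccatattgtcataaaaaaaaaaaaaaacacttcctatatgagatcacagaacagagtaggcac
Tnip1: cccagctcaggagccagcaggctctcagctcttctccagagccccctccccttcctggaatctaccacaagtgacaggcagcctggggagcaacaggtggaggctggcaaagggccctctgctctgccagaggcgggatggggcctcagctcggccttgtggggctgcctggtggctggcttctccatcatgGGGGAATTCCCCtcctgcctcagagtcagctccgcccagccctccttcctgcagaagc
The match in Rel lies 92 to 82 bases before the start site, that in Il2ra 201 to 191 and that in Tnip1 58 to 47. Of the 12190 genes tested, 9885 were found in the promoter table, and 4.41% of their windows held a match. In the NF-kB list it was 8 of 14, of which 3 belonged to genes that rose (Rel, Tnfaip3 and Bcl10) and 5 to genes that fell (Nfkb2, Nfkbia, Nfkbie, Tnip1 and Cyld). Among genes at least 4-fold higher at 2 h 4.42% held it and among those at least 4-fold lower 5.05%. A match describes the letters in the window and does not show binding.

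In the calcium and NFAT pathway, which carries the receptor signal from the endoplasmic reticulum to transcription, 3 of 19 rose, 10 fell and 6 were not called. The inositol trisphosphate receptor gene Itpr2 read 2155 and 1870.3 at 0 h and 279 and 262 at 2 h (-2.82 ± 0.10), although 1 of its 6 probe sets was called higher. Itpr3 fell by 2.37 ± 0.13 and the calcium sensor gene Stim1 fell by 2.05 ± 0.16. Orai1, the pore of the store-operated calcium channel, went up from means of 1086 to 3891 (1.83 ± 0.08).

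Of 22 secreted cytokines and chemokines, 5 rose, 7 fell and 10 were not called. Ccl3, a chemokine close to Ccl4, read 149 and 139 at 0 h and 1489.8 and 1450.4 at 2 h (3.21 ± 0.21). Adm, which encodes the peptide adrenomedullin, read 206 and 264 at 0 h and 2616 and 1851 at 2 h (3.15 ± 0.15). Falls were found in Il16, from means of 3927 to 479 (-3.0 ± 0.08, all 4 probe sets), and in the lymphotoxin beta gene Ltb, from means of 12416 to 1891 (-2.70 ± 0.08). Median scaling turned the balance of this list to 8 higher and 6 lower.

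Costimulatory and activation surface molecules mostly went up, with 13 of 21 higher, 6 lower and 2 not called and a median of 0.86. Cd44, the hyaluronan receptor, read 329 and 575 at 0 h and 2905 and 2629 at 2 h (2.62 ± 0.17, all 3 probe sets). Cd86, the ligand through which B cells costimulate T cells, read 765 and 827 at 0 h and 3153 and 3453 at 2 h (2.03 ± 0.07). The early activation antigen gene Cd69 was high from the start, with 2813 and 3266 at 0 h and 4046 and 3902 at 2 h (0.39 ± 0.09). The groups did not overlap for Cd69, but its rise was the smallest of those named here. The TNF receptor genes Tnfrsf9 and Tnfrsf1b rose by 2.48 ± 0.46 and 2.42 ± 0.12. Slamf1, a self-binding receptor of lymphocytes, fell by 2.37 ± 0.13.

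Ribosome biogenesis genes were mostly higher. They encode the factors that transcribe, modify and assemble ribosomal RNA in the nucleolus, and B cells build ribosomes before they divide. Of 47 genes 42 rose, 2 fell and 3 were not called, with a median of 1.40. Their probe sets also moved together. Of 29 called members with several probe sets, 26 had all of them called the same way, compared with 32.3% over all such genes. Under the mean of the probe sets 47 of 47 were called higher.

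Polr1b, a subunit of RNA polymerase I, read 99.7 and 123 at 0 h and 1409 and 1458 at 2 h (3.51 ± 0.24). Nop14, a factor of the small subunit, read 40 and 67.0 at 0 h and 927 and 1106 at 2 h (3.91 ± 0.23), and Nop16, a factor of the large subunit, read 168 and 177 at 0 h and 2458 and 2614 at 2 h (3.76 ± 0.09). All 3 separated the 0 h from the 2 h arrays with a wide gap. Utp4, a part of the small subunit processome, rose by 2.72 ± 0.11. The H/ACA gene Nop10 fell by 0.90 ± 0.06 and the polymerase I cofactor gene Taf1d fell by 1.19 ± 0.13, but each had probe sets called in the opposite direction. Heatr1, Gnl2 and Polr1a were not called (-0.30, 0.03 and 0.03).

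The E-box CACGTG, the element bound by Myc and its partners, was looked for on both strands in the same windows. In the 250 bases before the start site it was in 3 of 41 ribosome biogenesis genes (7.32%) and in 8.36% of all genes tested. When the first 50 bases after the start site were added the share was 12 of 41 (29.3%) against 10.1%. Most of the matches in this list therefore lay at or just after the start site.

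Genes of the translation machinery went up in part. Of 35 initiation factors 21 rose, 7 fell and 7 were not called, with a median of 0.37. Eif4a1, the helicase of the cap-binding complex, read 1233 and 1055 at 0 h and 7396 and 7594 at 2 h (2.70 ± 0.07). Eif4e, which binds the cap, read 445 and 542 at 0 h and 2953 and 3029 at 2 h (2.57 ± 0.09). Eif3m rose by 2.66 ± 0.07, whereas Eif3i fell by 1.20 ± 0.05 and Eif3f fell by 0.87 ± 0.05. Of 19 aminoacyl-tRNA synthetases 10 rose, 6 fell and 3 were not called. The threonine enzyme Tars read 517 and 539 at 0 h and 5579 and 5876 at 2 h (3.40 ± 0.07) and the arginine enzyme Rars read 235 and 345 at 0 h and 2737 and 2820.0 at 2 h (3.21 ± 0.13). The valine enzyme Vars fell by 2.31 ± 0.09.

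Amino acid transporters were higher in 9 of 19 cases and lower in 2, with 8 not called. Slc7a5, the light chain of the large neutral amino acid transporter, read 351 and 277 at 0 h and 1898 and 1858 at 2 h (2.53 ± 0.14), and its partner Slc3a2 read 2690.1 and 2440.2 at 0 h and 7183 and 7513 at 2 h (1.51 ± 0.06). The taurine transporter gene Slc6a6 rose by 3.15 ± 0.20. Slc43a2, another carrier of neutral amino acids, was among the largest falls and read 3439 and 3453 at 0 h and 198 and 154 at 2 h (-4.18 ± 0.12). Slc7a5 and Slc43a2, with overlapping substrates, went in opposite directions.

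Of 24 genes for serine, folate and nucleotide synthesis 14 rose, 7 fell and 3 were not called, with a median of 0.68. Ctps, which makes CTP, read 799 and 778 at 0 h and 5097 and 5274 at 2 h (2.69 ± 0.06). Ppat, the first enzyme of purine synthesis, read 395 and 291 at 0 h and 2128 and 2324 at 2 h (2.66 ± 0.12), and Mthfd2, a mitochondrial folate enzyme, rose by 2.66 ± 0.09. Prps2 fell by 1.71 ± 0.10.

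Myc itself read 556 and 777 at 0 h and 5863 and 5784 at 2 h (3.12 ± 0.12, adjusted p = 3.15e-11). Myc drives growth genes in activated lymphocytes. Of 14 genes in its network 4 rose, 5 fell and 5 were not called, and median scaling gave 4 and 3. Ruvbl1 and Ruvbl2, helicases found with Myc, rose by 1.75 ± 0.08 and 1.57 ± 0.09. Mycn, a dimly read gene, fell by 1.27 ± 0.36.

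Cell cycle genes did not move as 1 group. Of 19 G1 cyclins, kinases and inhibitors 10 rose, 4 fell and 5 were not called. The cyclin D2 gene Ccnd2, the D cyclin that B cells use, read 1658 and 1622 at 0 h and 3470.3 and 3344 at 2 h (1.05 ± 0.06), and 6 of its 7 probe sets were called higher. Its kinase gene Cdk4 read 792 and 824 at 0 h and 2547 and 2655 at 2 h (1.67 ± 0.07). The inhibitor gene Cdkn1a rose by 2.08 ± 0.14 and the cyclin E1 gene Ccne1 fell by 2.19 ± 0.14. Of 41 replication genes 13 rose, 17 fell and 11 were not called, with a median of -0.24 against -0.32 for all genes. Over all genes 23.8% rose and 39.2% fell. Pcna, the sliding clamp of DNA polymerase, read 1713 and 1874 at 0 h and 13054 and 13844 at 2 h (2.90 ± 0.06), while the polymerase subunit gene Pold1 read 4697 and 4280.2 at 0 h and 596 and 759 at 2 h (-2.71 ± 0.12). With median scaling this list had 16 higher and 10 lower, and with the mean of the probe sets 17 and 7. Of 25 G2/M and mitosis genes 1 rose, 9 fell and 15 were not called. The proliferation marker gene Mki67 read 209 and 215 at 0 h and 1.77 and 31.2 at 2 h (-2.98 ± 0.39).

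Of 23 integrated stress response genes 13 rose, 5 fell and 5 were not called, with a median of 0.48. Gadd45b read 1828 and 1900.1 at 0 h and 7900.2 and 8272 at 2 h (2.11 ± 0.06) and the glutathione-degrading enzyme Chac1 rose by 1.72 ± 0.25. Of 30 heat shock chaperones 16 rose, 7 fell and 7 were not called. The chaperonin subunit gene Cct8 read 344 and 411 at 0 h and 3824 and 4057 at 2 h (3.33 ± 0.10) and the mitochondrial cochaperonin gene Hspe1 read 1115 and 1189 at 0 h and 7291 and 7441 at 2 h (2.66 ± 0.07). The heat-inducible genes Hspa1b and Hspa1a fell. Hspa1b read 10582 and 11042 at 0 h and 3243 and 2913 at 2 h (-1.81 ± 0.10) and Hspa1a read 3777 and 4767 at 0 h and 1714 and 1416 at 2 h (-1.44 ± 0.21). An additive fit took genotype, time and the division of the 12 arrays by their control probes (cko 0 h, wt 0 h and wt 12 h against the other groups). It gives 1 effect of 2 h shared by both genotypes, not that of cko alone. Only at 12 h do the genotypes lie on different sides, so a genotype effect at 12 h cannot be told apart from the division. The shared effect was positive for both genes, at 2.75 for Hspa1b and 4.42 for Hspa1a, and the fit cannot settle their direction in cko. The same fit also gave the opposite sign for Cd69, Eif3i, Nfkb2, Nfkbia, Nfkbie, Ndufs4, Nop10 and Atic.

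Proteasome genes mostly rose. Of 37 genes 24 rose, 8 fell and 5 were not called, with a median of 0.54. The core subunit gene Psma4 read 384 and 411 at 0 h and 2599 and 2464 at 2 h (2.62 ± 0.08) and Psmb7 read 193 and 236 at 0 h and 1243 and 1223 at 2 h (2.44 ± 0.14). All 3 catalytic subunits of the immunoproteasome, which replaces the standard ones in lymphocytes, fell. Psmb9 read 3496 and 3434 at 0 h and 822 and 817 at 2 h (-2.06 ± 0.07), Psmb10 fell by 1.78 ± 0.07 and Psmb8 fell by 1.40 ± 0.06.

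**Figure D4:**
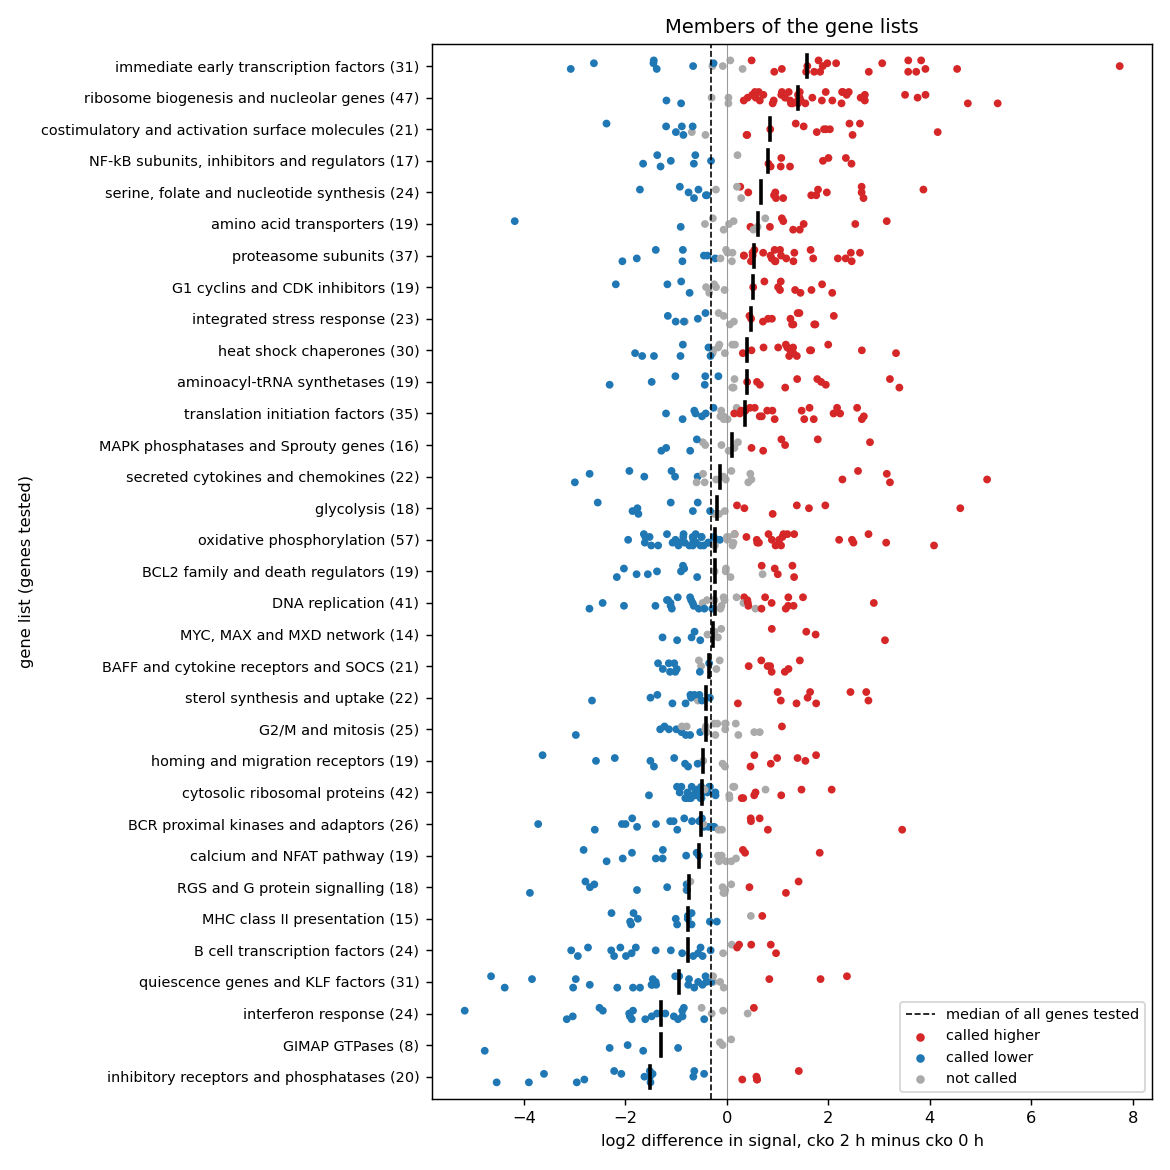
Log2 difference of cko 2 h minus 0 h for every tested member of 33 gene lists, each point 1 gene, ordered by the median of the list (black bars); red and blue mark genes called higher and lower, grey those not called, and the dashed line is the median of all genes, -0.32. Immediate early transcription factors (1.59) and ribosome biogenesis genes (1.40) lie at the top and inhibitory receptors and phosphatases (-1.51) at the bottom.

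The largest falls were led by Xaf1, an interferon-inducible gene whose product binds the caspase inhibitor XIAP. It read 2156 and 2185 at 0 h and 40.7 and 49.3 at 2 h (-5.17 ± 0.18, adjusted p = 8.88e-12), and its other probe set, with -0.71, was not called. The sialyltransferase gene St3gal1 read 1559 and 1451 at 0 h and 37.4 and 44.8 at 2 h (-4.74 ± 0.18). Trp53inp2, whose product takes part in autophagy, read 2312 and 2377 at 0 h and 88.9 and 68.6 at 2 h (-4.65 ± 0.18). All 3 belong to the 9 genes of the rule above. Trp53inp2 alone of them was lower still at 12 h, with 52.7 and 32.2 at 12 h.

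Other large falls encode regulators of the cytoskeleton and of signalling. Tnk2, a kinase that binds Cdc42, read 5872 and 5617 at 0 h and 283 and 386 at 2 h (-4.05 ± 0.11). Fgd3, an exchange factor for Cdc42, read 6269 and 6836 at 0 h and 400.4 and 375 at 2 h (-4.02 ± 0.09), and Unc13d, which primes granules for exocytosis, fell by 4.07 ± 0.18. The glycosyltransferase gene B3gnt8 fell by 4.49 ± 0.24 to signals of 4.05 and 4.25. Ssh1 (-4.54 ± 0.07), a phosphatase for cofilin, Plec (-4.38 ± 0.13), a linker of the cytoskeleton, Kbtbd11 (-4.38 ± 0.09) and Ccdc173 (-4.19 ± 0.21) each had another probe set that was not called, at 0.06, -0.16, 0.96 and 0.33. Their falls rest on 1 probe set, or for Ssh1 on 2 of 3.

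Genes that restrain the receptor were mostly lower. Of 20 inhibitory receptors and phosphatases 15 fell and 5 rose, with a median of -1.51, which the additive fit moved to -0.87. Dok3, an adaptor that dampens receptor signals, read 4617 and 4796 at 0 h and 191 and 184 at 2 h (-4.54 ± 0.08, adjusted p = 3.51e-14). Cd22, a sialic acid receptor that recruits phosphatases, read 22074 and 22551 at 0 h and 1458 and 1498 at 2 h (-3.90 ± 0.05), and its relative Siglecg read 3376 and 3134 at 0 h and 237 and 270.1 at 2 h (-3.60 ± 0.08). The groups did not overlap for any of these 3, as for 81.1% of all genes. The ubiquitin ligase gene Cblb fell by 2.81 ± 0.07, Ptpn18 fell by 2.96 ± 0.07 and Fcrla fell by 2.22 ± 0.09. Ptpn22, a phosphatase that acts on Src-family kinases, rose by 1.42 ± 0.11.

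Of 26 kinases and adaptors on the activating side of the receptor 18 fell, 5 rose and 3 were not called, with a median of -0.52 against -0.32 for all genes. Median scaling left 11 lower and 5 higher with a median of -0.12. Syk, the kinase that docks on the receptor, read 8077 and 8101 at 0 h and 586 and 613 at 2 h (-3.72 ± 0.07), and all 4 probe sets fell. Bank1, a scaffold of B cells, read 17057 and 17130.5 at 0 h and 3953 and 4179 at 2 h (-2.07 ± 0.06) and Plcg2, the phospholipase of the pathway, read 3267 and 3215 at 0 h and 756 and 846 at 2 h (-2.0 ± 0.07). The Src-family kinase gene Fyn moved against them and read 310.5 and 207 at 0 h and 2930.4 and 2955 at 2 h (3.46 ± 0.15), with both probe sets higher.

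Of 18 genes for RGS proteins and G protein signalling 8 fell, 3 rose and 7 were not called, with a median of -0.75 against -0.32 for all genes. The receptor kinase gene Grk6 read 14208 and 14272 at 0 h and 926 and 978 at 2 h (-3.88 ± 0.06) and Gnai2, the inhibitory G protein used by chemokine receptors, read 13736 and 12659 at 0 h and 2024 and 2269 at 2 h (-2.61 ± 0.07). Gnai3, a second inhibitory subunit, rose by 1.41 ± 0.06. Homing and migration receptors fell in 9 of 19 cases and rose in 7, with 3 not called and a median of -0.46. Median scaling turned this to 8 higher and 6 lower. The integrin genes Itgb7 and Itga4, whose products pair for entry to mucosal tissue, read 2445 and 2501 at 0 h and 188 and 181 at 2 h (-3.63 ± 0.11) and 1511 and 1471 at 0 h and 233 and 239 at 2 h (-2.58 ± 0.09). Gpr183, the oxysterol receptor that positions activated B cells in the follicle, rose from means of 1408 to 4803 (1.76 ± 0.15). S1pr3 rose by 1.55 ± 0.10 and S1pr4 fell by 2.21 ± 0.07. Of 21 BAFF, cytokine receptor and SOCS genes 8 rose, 9 fell and 4 were not called. Their median of -0.35 was close to that of all genes, and median scaling gave 8 and 7. Il21r rose by 1.44 ± 0.10 and Tnfrsf13c, the BAFF receptor, by 1.21 ± 0.08.

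Factors that set B cell identity were mostly lower. Of 24 genes 17 fell, 5 rose and 2 were not called, with a median of -0.77. Pax5, the factor that commits cells to the B lineage, read 936 and 766 at 0 h and 86.2 and 108 at 2 h (-2.94 ± 0.13), and both probe sets fell. Bcl11a read 4995 and 4722 at 0 h and 528 and 604 at 2 h (-3.07 ± 0.08), with all 6 probe sets lower. Bcl6, the germinal centre factor, fell by 2.22 ± 0.18, Ikzf1 fell by 2.28 ± 0.08 and Ikzf3 fell by 2.10 ± 0.07. Ets1 fell by 2.74 ± 0.06 but 1 of its 4 probe sets was called higher. Irf8 rose by 0.87 ± 0.05, and Prdm1, the plasma cell regulator, by 0.97 ± 0.25 at a low signal.

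Of 15 genes for antigen presentation by MHC class II 13 fell, 1 rose and 1 was not called, with a median of -0.77. The chaperone subunit gene H2-Ob read 14225 and 15051 at 0 h and 4861 and 3849 at 2 h (-1.75 ± 0.12) and H2-DMa read 8379 and 8010.2 at 0 h and 2217 and 2339.9 at 2 h (-1.84 ± 0.06). After quantile normalization 8 of the 15 were lower and 3 higher. Whether fewer B cells or less RNA per B cell underlies a lower signal cannot be told apart in bulk RNA.

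Quiescence genes and KLF factors fell in 24 of 31 cases, with 3 higher, 4 not called and a median of -0.94. Foxo1, the factor through which PI3 kinase signals end quiescence, read 2995 and 3102 at 0 h and 444 and 466 at 2 h (-2.70 ± 0.09), although 1 of its 3 probe sets was called higher. Mxd4, an antagonist of Myc, read 3405 and 3333 at 0 h and 191 and 254 at 2 h (-3.84 ± 0.11). Klf13 fell by 3.03 ± 0.10 and Klf7 fell by 2.98 ± 0.12. The antiproliferative genes Tob1 and Tob2 moved against the rest, by 1.85 ± 0.15 and 2.37 ± 0.14. Of 8 GIMAP GTPases, which support lymphocyte survival, 5 fell and 3 were not called. Gimap7 read 7479 and 7416 at 0 h and 245 and 270.3 at 2 h (-4.77 ± 0.10), Gimap3 2352 and 2129.9 at 0 h and 438 and 439 at 2 h (-2.31 ± 0.10) and Gimap4 11974 and 12526 at 0 h and 2999 and 3300.0 at 2 h (-1.96 ± 0.06).

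The interferon list fell almost as a whole, with 19 of 24 lower, 1 higher, 4 not called and a median of -1.29. These genes respond to type I interferon through the factor ISGF3, of which Stat2 is a part. Stat2 read 179 and 196 at 0 h and 5.47 and 12.6 at 2 h (-3.04 ± 0.38), but its second probe set was not called. Rtp4 read 500.4 and 575 at 0 h and 53.3 and 39.5 at 2 h (-3.16 ± 0.22), Ifit2 271 and 280.1 at 0 h and 36.4 and 34.1 at 2 h (-2.51 ± 0.22) and Ddx58, which encodes the RNA sensor RIG-I, 1044 and 1136 at 0 h and 188 and 186 at 2 h (-2.44 ± 0.12). All of them were lower on both arrays at 2 h than on either at 0 h, while the arrays of 81.1% of all genes were apart in either direction. Isg20 fell by 1.93 ± 0.12. Rsad2 was higher (0.53 ± 0.20), a call lost without any 1 of the 4 arrays and reversed in the additive fit.

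The upstream windows of Ifit3, Ifit1 and Oas1a are shown because each holds the interferon-stimulated response element, searched on both strands as a pair of GAAA repeats with 2 free bases between them. They were taken as above from RefSeq, build GRCm38.p6, at chr19:34583279-34583528 (plus strand), chr19:34640639-34640888 (plus strand) and chr5:120907526-120907775 (minus strand). Capitals mark the element on either strand.
Ifit3: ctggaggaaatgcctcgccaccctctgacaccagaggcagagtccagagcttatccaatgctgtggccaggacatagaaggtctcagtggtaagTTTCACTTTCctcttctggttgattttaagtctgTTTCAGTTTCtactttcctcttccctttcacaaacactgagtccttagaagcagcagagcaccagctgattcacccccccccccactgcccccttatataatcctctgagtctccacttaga
Ifit1: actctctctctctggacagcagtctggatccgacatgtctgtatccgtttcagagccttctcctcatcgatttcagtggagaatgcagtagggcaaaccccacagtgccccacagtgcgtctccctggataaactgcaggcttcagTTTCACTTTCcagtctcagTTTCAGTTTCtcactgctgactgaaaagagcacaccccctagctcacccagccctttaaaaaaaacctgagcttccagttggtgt
Oas1a: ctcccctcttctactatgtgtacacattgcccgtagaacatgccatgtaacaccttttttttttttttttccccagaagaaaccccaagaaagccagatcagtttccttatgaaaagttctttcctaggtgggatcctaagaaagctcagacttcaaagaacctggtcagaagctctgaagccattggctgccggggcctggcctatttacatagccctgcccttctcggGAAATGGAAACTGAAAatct
The element was in 7 of 16 interferon genes with a window (43.8%), against 2.59% of all genes tested with one. Its carriers were Ifit1, Ifit3, Oas1a, Stat2 and Trim30a, which fell, Rsad2, which was called higher, and Bst2, which was not called (0.41). Ifit3 fell by 1.87 ± 0.28, Ifit1 fell by 1.85 ± 0.26 and Oas1a fell by 1.91 ± 0.13. Among genes at least 4-fold lower 4.27% held it and among those at least 4-fold higher 1.77%.

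Survival genes of the BCL2 family changed in both directions, with 9 of 19 lower, 5 higher and 5 not called. Over all genes 39.2% were lower and 23.8% higher. The median of the list was -0.24 against -0.32 for all genes, so the counts show nothing particular to the family. Bcl2, the survival protein of resting B cells, read 5703 and 5376 at 0 h and 1226 and 1212 at 2 h (-2.17 ± 0.06), with all 5 probe sets lower. Bcl2l1, which encodes Bcl-xL, read 355 and 256 at 0 h and 551 and 698 at 2 h (1.0 ± 0.17). The pro-apoptotic Bcl2l11, which encodes Bim, read 2651 and 3634 at 0 h and 7826 and 7428 at 2 h (1.29 ± 0.11). Mcl1 fell by 0.84 ± 0.05, with 2 of its 6 probe sets called higher. Bid, a link from death receptors to mitochondria, rose by 1.33 ± 0.13 but 1 of its 2 probe sets was called lower. Casp9 fell by 2.03 ± 0.15, Bak1 fell by 1.78 ± 0.31 and Bad fell by 1.56 ± 0.19.

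Lists of abundant housekeeping genes gave no settled direction. Of 42 cytosolic ribosomal proteins 29 fell, 7 rose and 6 were not called, but quantile normalization turned this to 17 higher and 13 lower. Of 57 oxidative phosphorylation genes 30 fell, 20 rose and 7 were not called, and median scaling turned this to 28 higher and 19 lower. Of the 33 called oxidative phosphorylation genes with several probe sets, 18 had 1 called in the opposite direction. Ndufs4 (3.14 ± 0.11), a complex I subunit, had its other 3 probe sets called lower. Glycolysis genes (7 higher, 8 lower, 3 not called) and sterol genes (10 higher, 11 lower, 1 not called) were split as well, and median scaling turned both. Within the sterol list Idi1 rose by 2.75 ± 0.13 and Dhcr7 fell by 2.66 ± 0.37.

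Other cells in the sort were followed by their markers. The summed signal of 14 T and NK cell genes was 3392 and 3808 at 0 h and 1629 and 1743 at 2 h. Of these Cd2 alone read 1330.3 and 1531 at 0 h and 846 and 837 at 2 h. Among the 11 genes tested, 7 were called lower and 0 higher. For 12 neutrophil genes the sums were 8374 and 8238 at 0 h and 2657 and 2914 at 2 h, with 7 of 11 tested lower and 1 higher. For 18 myeloid genes they were 9829 and 10293, then 3875 and 3997, with 8 of 14 tested lower and 3 higher. Csf1r, a myeloid receptor gene, read 1547 and 1634 at 0 h and 81.7 and 81.5 at 2 h (-4.04 ± 0.11). B cell markers fell too, from sums of 169412 and 174551 to 75355 and 80462 over 12 genes, with 10 lower, 1 higher and a median of -1.68. The sums of platelet and of marginal zone and immature B cell genes also fell. Those of 8 erythroid genes rose, from 1281 and 1380 to 3955 and 3772, with 1 called higher and 2 lower. Most of this sum was Tfrc, the transferrin receptor gene, which read 868 and 941 at 0 h and 3617 and 3477 at 2 h. Slc4a1 of the same list read 84.6 and 111 at 0 h and 27.6 and 21.2 at 2 h. The erythroid rise therefore rests on Tfrc. Those of 7 plasma cell genes rose from 15137 and 15485 to 20273 and 19900, with 2 called higher and 3 lower. This rise rests on Irf4, which read 3129 and 3164 at 0 h and 10391 and 10423 at 2 h. Mzb1 of the same list read 3374 and 3245 at 0 h and 960 and 897 at 2 h. The lists that fell hold genes shared with these cells, and the part of other cells in those falls was not tested.

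The wild-type arrays, which share no array with the cko comparison, were set beside it to compare the responses of the genotypes. In wild-type cells 7277 genes were called (59.7%). Of the 7684 genes called in cko cells, 5992 were called in the same direction in wild type, which is 78.0% of the cko calls and 82.3% of the wild-type calls. Another 141 were called in opposite directions. Across the 12190 genes, which are not independent replicates, the 2 responses had a correlation of 0.86. The test of the difference itself called 2491 genes (20.4%), 1047 with a higher value in cko (8.59%) and 1444 with a lower one (11.8%), with 46 of them past 4-fold. Median signal and actin 5′ to 3′ percentage moved further in cko than in wild type, whereas the cre control fell further in wild type, from 31014 and 30485.5 to 18493 and 17723, and the part of these shifts in the differences was not tested.

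**Figure D5:**
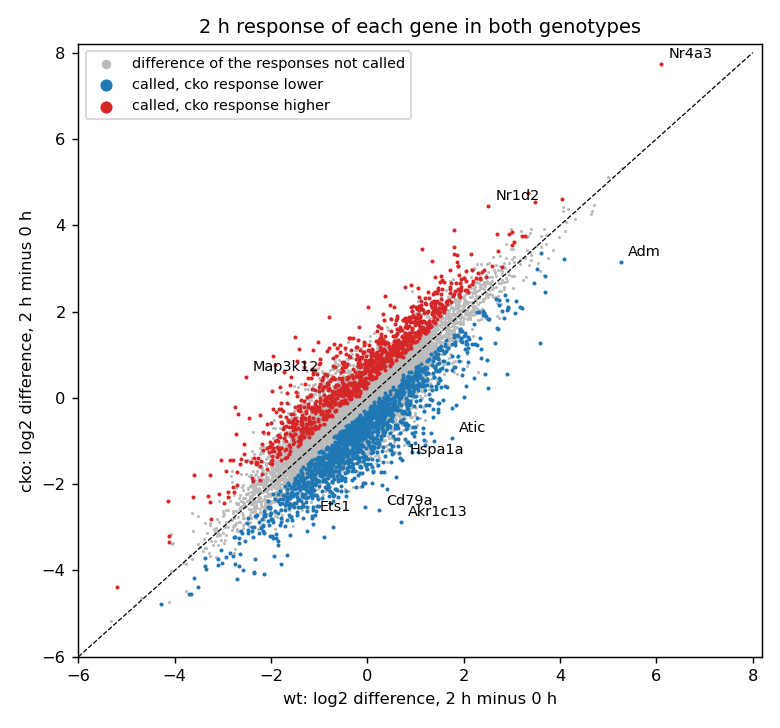
Log2 difference of 2 h minus 0 h for each of 12190 genes in wild type (x axis) and in cko cells (y axis); the dashed line marks equal responses, and colours mark the 2491 genes for which the difference of the responses was called. Nr4a3 lies farthest to the upper right, and Cd79a, at 0.24 ± 0.12 in wild type and -2.60 ± 0.12 in cko, lies well below the line.

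Cd79a, the signalling chain of the B cell receptor, had the second most negative difference. On the cko arrays it read 2431 and 2391 at 0 h and 389 and 378 at 2 h, and on the wild-type arrays 1363 and 1012 at 0 h and 1505 and 1276 at 2 h. The responses differed by -2.84 ± 0.16 (adjusted p = 2.28e-07), with the cko arrays above wild type at 0 h and below them at 2 h. Atic, an enzyme of purine synthesis, read 1603 and 1514 at 0 h and 753 and 877 at 2 h in cko and 615 and 630.3 at 0 h and 2003 and 2276 at 2 h in wild type, a difference of -2.68 ± 0.12, though 1 of its 2 probe sets rose in cko. Syt11 read 2125 and 2828 at 0 h and 441 and 378 at 2 h in cko and 719 and 909 at 0 h and 599 and 1012 at 2 h in wild type (-2.49 ± 0.27), which the mean of its 4 probe sets did not keep as a call. Akr1c13 had the largest value of all (-3.56 ± 0.51), at low signals throughout, with 119 and 143 at 0 h and 1.97 and 6.46 at 2 h in cko and 5.96 and 2.08 at 0 h and 13.9 and 18.6 at 2 h in wild type.

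In the other direction Map3k12, a kinase of the MAP kinase cascade, read 117 and 115 at 0 h and 179 and 161 at 2 h in cko and 287 and 257 at 0 h and 25.9 and 43.2 at 2 h in wild type, a difference of 3.02 ± 0.38. Cd302, a lectin-like receptor gene, read 86.1 and 60.3 at 0 h and 215 and 220.5 at 2 h in cko and 233 and 283 at 0 h and 105 and 61.2 at 2 h in wild type (2.90 ± 0.33). Esrp2, a splicing regulator, differed by 2.94 ± 0.32. All 3 were higher in wild type than in cko at 0 h and lower at 2 h. Adcy9, an adenylyl cyclase gene, differed by 2.53 ± 0.47 and Frat1, a regulator of Wnt signalling, by 2.66 ± 0.58.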

How the data were processed

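RNA from sorted splenic B cells (100 ng, amplified before labelling, per the labels) was hybridized to 12 Affymetrix mouse whole-genome expression arrays, 2 per group in 6 groups. The deposited values are intensities on a linear scale, scaled by the authors with GCOS 1.4, per the submitters' processing notes; each array had the same 2% trimmed mean, and how probes were summarised is not stated. Of 45101 probe sets, 34945 with 1 gene symbol in GEO's platform annotation were kept (99.4% updated through their Entrez identifier); 9160 had none, 932 several and 64 were controls. Values were taken as log2(signal + 16), probe sets below the 40th percentile of the mean were left out, and the brightest probe set stood for each gene. Groups were taken from the sample titles. limma 3.58.1 in R 4.3.3 fitted all 6 groups with an intensity trend, and p-values were adjusted by Benjamini-Hochberg over 12190 genes. Errors after ± are standard errors of the fit, with 2 arrays per group.

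The members and gene lists were chosen with earlier results of these data known. Genes were named by rule: the 15 largest called rises and falls whose groups did not overlap, up to 6 called members per list with up to 3 called against the majority, uncalled members where a count needs them, the 10 largest differences each way, and Zfx, Myc, Egr1, Ccnd2, Bcl2l1, Bcl2l11, Mcl1, Cd69 and Cd86. Members with a promoter match, and Slc3a2, Slc7a5's partner, Cd79b, Cd3d, Cd2, Il21r, Tnfrsf13c and members of the same lists beyond that number were named after their values were seen. Alternatives were quantile normalization, median scaling, other pseudocounts and filters, no trend, the mean of the probe sets, every probe set, only the groups compared, a replicate block, an additive fit with the control-probe division, a 2-fold minimum and leaving out each array. The fit was tested on simulated data.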

Additional observations from a re-analysis of the deposited data

Results flagged for a closer look

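The genes named in the report whose 2 h response differed between cko and wild type at an adjusted p under 0.05 (limma, a test of the difference itself with 2 arrays per group) are given with the cko response minus the wild-type response on the log2 scale. The genes were named for their response in cko, or for the difference, and the same arrays gave this test. The cko value was the higher one as follows. The differences were Map3k12 3.02, Esrp2 2.94, Cd302 2.90, Frat1 2.66, Adcy9 2.53, Nr1d2 1.95, Nr4a3 1.64, Pus7 1.42, Slc6a6 1.30, Dusp6 1.27, Cct8 1.19, Nr4a2 1.06, Prps2 1.0, Ruvbl2 0.89, Eif3m 0.82, Kbtbd11 0.81. Further values were Psmb9 0.74, Tars 0.68, Relb 0.64, Ruvbl1 0.61, Slc16a1 0.56, Polr1a 0.53, Tnfrsf1b 0.52, Eif4a1 0.51, Egr1 0.47, Gnai3 0.44, Il21r 0.43, Psmb10 0.41, Cdk4 0.37, Slc3a2 0.33.

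The cko value was the lower one for the remaining genes. The differences were Akr1c13 -3.56, Cd79a -2.84, Atic -2.68, Syt11 -2.49, Hspa1a -2.15, Adm -2.11, Mxd4 -2.04, Itgb5 -1.96, Unc13d -1.93, Jun -1.81, Tnk2 -1.69, Csf1r -1.68, Ets1 -1.59, Ifit1 -1.56, Jund -1.54, Ccdc173 -1.49. Smaller values were Rtp4 -1.27, Hspa1b -1.26, Bcl3 -1.25, Ltb -1.25, Pax5 -1.12, Bst2 -1.10, Stim1 -1.04, Tnfaip3 -0.99, Nfkbie -0.96, Ccne1 -0.96, Bcl6 -0.92, Zfx -0.91, Ccl3 -0.87, Ssh1 -0.87, Dusp4 -0.86, Plec -0.86, Cdkn1a -0.84. Smaller values were Dok3 -0.84, Cblb -0.83, Gadd45b -0.81, Mthfd2 -0.81, Klf7 -0.80, Ptpn18 -0.80, Grk6 -0.79, Fcrla -0.71, Nop10 -0.70, Gnai2 -0.70, Orai1 -0.69, Bank1 -0.65, Heatr1 -0.62, Bcl11a -0.60, Slc43a2 -0.59, Nfkbid -0.57. Smaller values were Ccnd2 -0.53, Cd22 -0.52, Bcl2l11 -0.52, Eif3i -0.51, Ikzf3 -0.51, Gimap7 -0.49, Syk -0.36, Nfkbia -0.34, Mcl1 -0.26. The actin 5′ to 3′ percentage rose further between 0 h and 2 h on the cko arrays and the hybridization controls fell further on the wild-type arrays, and their part in these differences was not tested.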

How the results depend on the processing

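The planned median scaling can be read in more than 1 way. Scaling the linear signals to a common median, the form run first, called 7263 genes, 4009 higher (55.2%) and 3254 lower, and 2174 differences between the genotypes. Shifting the log2 values, a form chosen after the first result was seen, called 7318, 3738 higher (51.1%) and 3580 lower, and 2329 differences. Neither settles the balance of rises and falls. The promoter window was cut from 300 to 250 bases after matches had been seen, and the E-box shares are given for both.

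Taking every probe set as a result gave 13273 calls, 5948 higher and 7325 lower. The additive fit with the control-probe division, whose 2 h effect is shared by both genotypes, called 4708, of which 2759 were lower. Requiring at least 2-fold left 4274 calls (1515 higher, 2759 lower) and 599 differences. Genes whose probe sets were all called the same way, a set chosen after seeing the data, numbered 1334 (645 higher, 689 lower). The mean of the probe sets left 1594 differences. Leaving out 1 array gave 6975 to 7147 calls, 2656 to 2769 higher, 4315 to 4378 lower and 1837 to 2075 differences, with the lone array assumed to vary like the other groups.

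The settings were run on 195 results on single genes, 186 on the 2 h response in cko and 9 on the difference of the responses. Of these, 151 kept direction and side of the threshold under all settings run on them. Single genes were not followed with every probe set, the 2-fold minimum or the genes whose probe sets were all called the same way. The other flagged differences were not rerun gene by gene. Directions were reversed by quantile normalization for Gnl2 (-0.0646), Nfkbia (0.0846), by median scaling of the signals for Heatr1 (0.11), by the mean of the probe sets for Atic (0.12), Heatr1 (0.29), Nop10 (0.75), Taf1d (0.61), and by the additive fit for Atic (0.75), Bst2 (-0.83), Cd69 (-0.10), Eif3i (0.11), Heatr1 (0.78), Hspa1a (4.42), Hspa1b (2.75), Ndufs4 (-0.23), Nfkb2 (0.70), Nfkbia (0.21), Nfkbie (1.54), Nop10 (0.17), Rsad2 (-0.75). The additive fit also lost the calls on the 2 h response of Akr1c13, Alyref, Bak1, Cblb, Cd302, Cd44, Ets1, Fosb, Ifit1, Ifit3, Itgb5, Jund, Mcl1, Mycn, Prdm1, Psmb7, Ptpn22, Relb, Ruvbl2, Slc6a6, Syt11, Taf1d, Tnfrsf9, Uqcrh and Zfx. Its 2 h effect mixes the cko response with that of wild type, so these calls are not on cko alone. Akr1c13, Cd302 and Atic, for example, moved in opposite directions in the 2 genotypes. The mean of the probe sets lost those of Bid, Ndufs4, Rsad2 and Zfx and the difference for Syt11, and median scaling that of Cd3d. Leaving out cko 0 h replicate 1 reversed Gnl2 (-0.0641) and Polr1a (-0.081), the latter at 0.144 without replicate 2. Beyond the array-wide shift, the cause was not tested.

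The labels number the arrays in each group, but same-numbered arrays did not deviate together (correlations from -0.014 to 0.013). No sign of pairing was seen, but these values cannot show whether same-numbered arrays share a mouse or a day. With the number as a replicate block 7666 genes were called, 2903 higher and 4763 lower, and 2465 differences. With 2 arrays per group the number of arrays limits the precision.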
